A study of Mus musculus with 8 samples.

Results

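Imprinted genes are transcribed mainly from the copy inherited from 1 parent. The 49 examined here, all known in the mouse and chosen by symbol without Cdkn1c, were found among the 54418 Ensembl genes of the deposited count table, each with 1 identifier. By textbook assignment 28 of them are expressed from the paternal allele and 20 from the maternal allele, and Gnas has transcripts of both kinds. For 4 of the paternally and 13 of the maternally expressed genes, imprinting is known only in some tissues, such as brain or placenta. Total RNA was sequenced from cells labelled melanocyte stem cells, the reserve that replaces the pigment cells of the hair, sorted at postnatal day 21 from dorsal skin as live, non-autofluorescent cells with Dct-driven GFP. The mice were of a mixed C57Bl-6;129Sv strain, were fed doxycycline pellets and carried Bmi1fl/fl, Dct-rtTA and TRE-H2B-GFP. The 4 control libraries came from mice with those alleles and no Cre named, and the 4 Bmi1-deleted libraries from mice that also carried Tyrosinase-Cre, a Cre active in the melanocyte lineage. The labels name no individual animal for a replicate, so the spread behind each p-value may be partly technical.

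Imprinting rests on DNA methylation that egg and sperm place differently on control regions, and that zinc finger proteins such as ZFP57, with the corepressor TRIM28, keep after fertilization. Most imprinted genes lie in clusters, where 1 control region silences some genes on the maternal copy and others on the paternal copy, in part through long non-coding RNAs such as Airn and Kcnq1ot1. A few, Sfmbt2, Gab1 and Slc38a4 among them, are instead marked in the egg by histone methylation of the Polycomb system, to which Bmi1 also belongs as a subunit of Polycomb repressive complex 1. Many paternally expressed genes promote growth in the embryo and are shut down after birth. The comparison asked how the RNA of imprinted genes differed after loss of Bmi1. The counts do not part the 2 alleles of a gene, so a difference may lie in either copy.

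The 8 libraries held 8882656 to 10368174 counts. Bmi1, the deleted gene, stood at 84.6, 76.5, 75.4 and 97.2 CPM (counts per 1000000, scaled by TMM) in control libraries 1 to 4 and at 69.2, 70.8, 69.6 and 68.8 CPM in Bmi1-deleted libraries 1 to 4, which did not overlap (log2 change −0.26, edgeR adjusted p = 0.607). Counts over the whole gene do not show which exons are lost. Replicates 1 and 2 stood apart from 3 and 4 in both groups, so values within each pair of numbers are given where they bear on a result. By inferred sex, 2 control libraries and 1 Bmi1-deleted library were female.

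Of the 49 genes, 35 had enough counts to be tested among 16011 genes. Peg3 and Zdbf2, both paternally expressed zinc finger genes, rose in the Bmi1-deleted libraries, and 0 of the 35 fell (2 had an unadjusted p under 0.05 in that direction, and DESeq2 also called 0). Passing meant a Benjamini-Hochberg adjusted p under 0.05 in edgeR's quasi-likelihood test over all 16011 genes. The same rule called 0.0874% of all tested genes higher and 0.00625% lower. With the replicate number of the titles as a block, a fit that takes out what libraries of 1 number share, 6 of the 35 rose and 2 fell, against 1.71% higher and 0.706% lower of all tested genes. The 6 were Peg3, Zdbf2, Peg10, Ppp1r9a, Mest and Rian, and the 2 were Plagl1 and Slc38a4. Another 4 genes, Sgce, Sfmbt2, Igf2 and Mirg, had an unadjusted p under 0.05 and passed neither fit. In all 10 genes had an unadjusted p under 0.05 with higher and 2 with lower levels, against 4.82% and 3.45% of all tested genes. The groups did not overlap in 8 of the 35 with all Bmi1-deleted libraries higher and in 0 with all lower, against 2.79% and 2.39% of all tested genes.

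**Figure D1:**
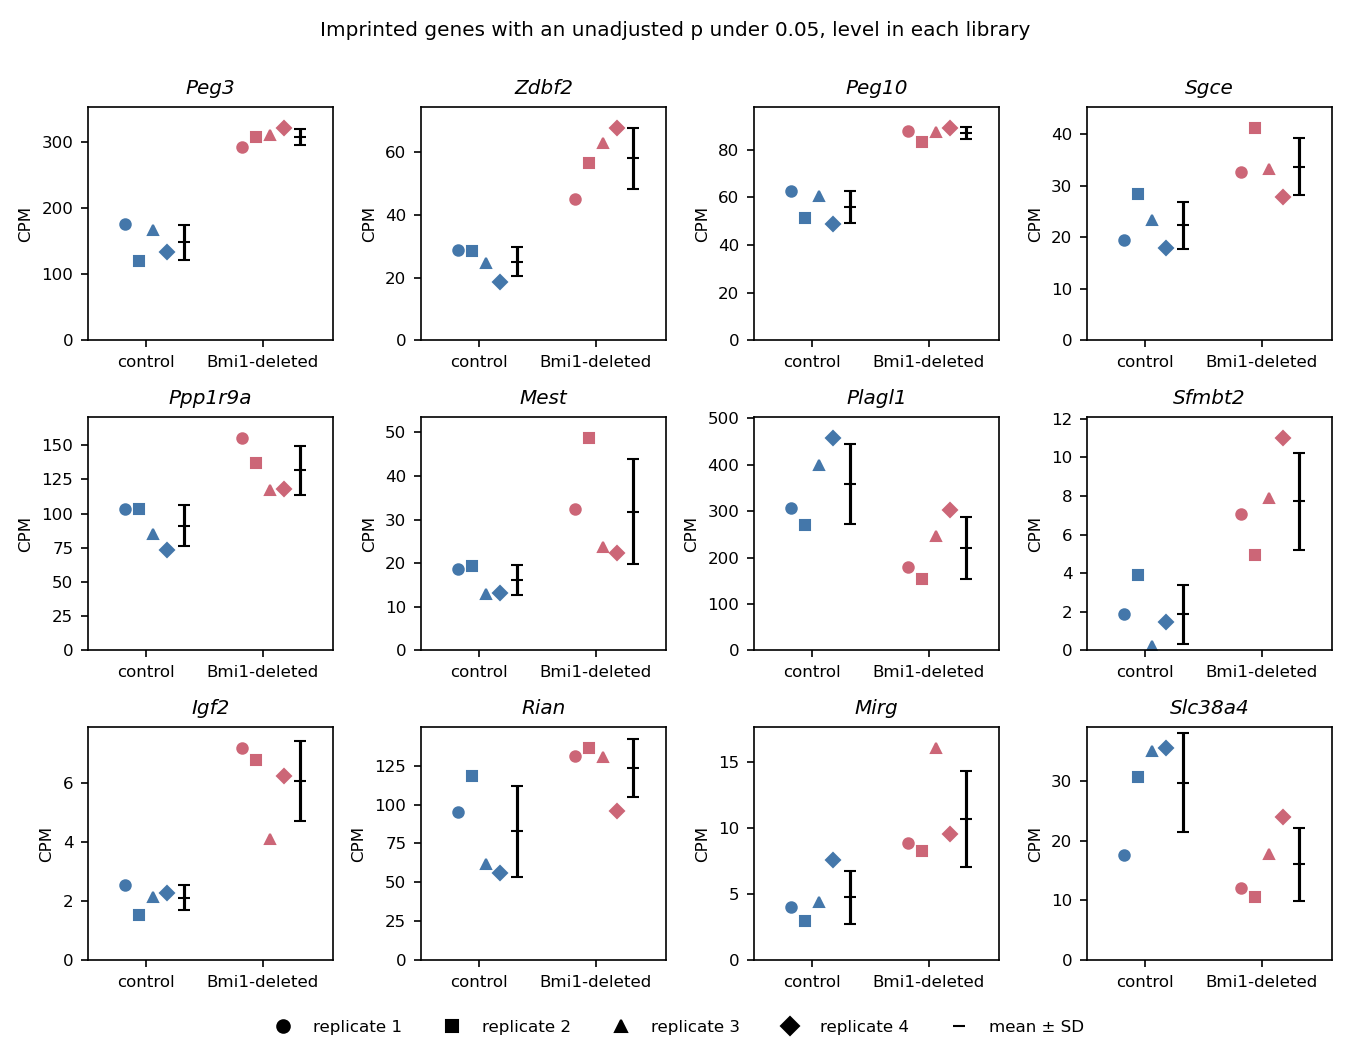
Level (CPM, linear axis from 0) of the 12 imprinted genes with an unadjusted p under 0.05 in each of 4 control (blue) and 4 Bmi1-deleted (red) libraries; symbols mark the replicate number, and bars the mean ± SD. The groups do not overlap for Peg3, Zdbf2, Peg10, Ppp1r9a, Mest, Sfmbt2, Igf2 and Mirg, and overlap for Sgce, Plagl1, Rian and Slc38a4.

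Sequences upstream of the genes that the results turn on are shown to place their promoters. RefSeq windows (build GRCm38.p6, 250 bases before to 50 after a start site) were found for 40 of the 49 genes, and only bases outside GENCODE exons are printed. Capitals mark TGCCGC, the hexamer that ZFP57 binds when methylated, and GCCATNTT, the core letters of YY1 sites, each searched on both strands, so that a match to the reverse complement is in capitals too. Peg3 and Usp29 start 164 bases apart on opposite strands and share the stretch between them, shown as read on the Peg3 strand, chr7:6730432-6730577 (minus). Zdbf2 has 2 start sites some distance apart, an upstream one with chr1:63200108-63200312 (plus) and a downstream one with chr1:63273121-63273225 (plus). Plagl1 is shown for chr10:13090582-13090690 (plus) and Mest for chr6:30737800-30738049 (plus).
Peg3 and Usp29: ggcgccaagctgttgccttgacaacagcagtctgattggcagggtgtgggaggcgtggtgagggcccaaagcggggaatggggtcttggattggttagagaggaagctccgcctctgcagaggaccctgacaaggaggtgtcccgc
Zdbf2, upstream start: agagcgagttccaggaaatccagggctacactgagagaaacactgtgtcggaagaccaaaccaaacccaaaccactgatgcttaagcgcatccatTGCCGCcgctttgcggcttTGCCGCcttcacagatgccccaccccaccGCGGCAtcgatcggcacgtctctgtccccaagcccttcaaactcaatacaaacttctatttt
Zdbf2, downstream start: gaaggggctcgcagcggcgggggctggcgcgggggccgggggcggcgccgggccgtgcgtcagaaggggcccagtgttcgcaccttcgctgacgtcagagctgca
Plagl1: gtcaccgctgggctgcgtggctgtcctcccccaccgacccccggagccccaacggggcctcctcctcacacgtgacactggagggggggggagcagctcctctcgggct
Mest: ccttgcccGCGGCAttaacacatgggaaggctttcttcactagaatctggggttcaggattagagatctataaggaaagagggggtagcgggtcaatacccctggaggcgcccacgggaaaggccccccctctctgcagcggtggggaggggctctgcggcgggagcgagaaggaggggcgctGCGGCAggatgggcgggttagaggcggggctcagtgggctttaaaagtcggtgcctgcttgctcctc

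The hexamer occurred 3 times before the upstream Zdbf2 start and 2 times before the Mest start shown. Neither motif occurred in the other 3 stretches, which says only that these letters are not in them. Another Mest start, at 30733506, had 0 matches to either motif in its upstream bases outside exons, which are not shown. The whole Plagl1 window, of which 109 bases are printed, does hold TGCCGC, in the part that is not shown. Over whole windows of 300 bases, TGCCGC was present in 14 of 62 windows of these genes (22.6%) and in 11.6% of 32851 windows of all genes. GCCATNTT was present in 6.45% and 6.05%, respectively. Overlapping windows of 1 gene were counted separately, as with the Mest starts at 30738050 and 30738053, which both hold TGCCGC. The median number of CpG dinucleotides was 14.5 in windows of the imprinted genes and 7 in all windows. The 2 Zdbf2 windows differed in CpG, with 15 at the upstream and 38 at the downstream start. GENCODE M21 begins Zdbf2 at the downstream site (chromosome 1, 63273265 to 63314576), and the sources used here do not say whether its count holds transcripts of the upstream start.

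Peg3 (ENSMUSG00000002265, mm10 chromosome 7, 6703892 to 6730431), a DNA-binding zinc finger gene known from stem and progenitor cells of adult tissues, had 1653, 1167, 1556 and 1178 counts in control libraries 1 to 4. Bmi1-deleted libraries 1 to 4 had 2655, 3094, 2794 and 2833. Every Bmi1-deleted library thus lay above every control library, and the Bmi1-deleted ones lay close together. The level rose from 149 ± 26.4 to 308 ± 11.7 CPM (SD, n = 4), 207% of control. The log2 change was 1.05 (SE 0.13, edgeR adjusted p = 0.00552). It was 1.02 in replicates 1 and 2 alone and 1.06 in replicates 3 and 4 alone, so the size was alike in both pairs of numbers. Peg3 passed with each of the 8 libraries left out in turn, with a highest adjusted p of 0.0271.

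The neighbours of Peg3 in its imprinted cluster were barely counted. Usp29, a paternally expressed deubiquitinase gene that shares the promoter stretch above, had at most 20 counts in any library and 56 in all 8, against 16930 for Peg3. Zim1, a maternally expressed zinc finger gene, had 22, 3, 18 and 0 counts in control and 27, 11, 8 and 2 in Bmi1-deleted libraries 1 to 4. Neither was tested, so nothing can be said of their direction. Of 11 tested genes that are no members and lie within 500 kb of Peg3, mostly other zinc finger genes, 0 passed edgeR's test in either fit (0 had an unadjusted p under 0.05). Their log2 changes ran from −1.11 to 1.08. This count of neighbours was chosen after the values of the members were seen.

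Zdbf2 (ENSMUSG00000027520), a DBF-type zinc finger gene linked to growth and feeding of newborn mice, had 270, 275, 231 and 164 counts in control libraries 1 to 4 and 409, 568, 565 and 596 in Bmi1-deleted libraries 1 to 4. The groups did not overlap. The level rose to 231% of control, from 25.1 ± 4.70 to 58.0 ± 9.72 CPM (SD, n = 4), a log2 change of 1.21 (SE 0.18, edgeR adjusted p = 0.019). The change was 0.83 in replicates 1 and 2 (adjusted p = 0.106) and 1.57 in replicates 3 and 4 (adjusted p = 0.0474). Zdbf2 passed without control 1 and without Bmi1-deleted 1, and did not pass without any of the other 6 libraries (adjusted p from 0.0529 to 0.0825). It did not pass with sex, inferred from Xist and Y-linked counts, as a covariate (1.18, adjusted p = 0.0676). With the block it passed (1.21, adjusted p = 0.00242), also with each of the 4 pairs left out. Among 9 tested genes within 500 kb that are no members 0 passed edgeR's test (1 had an unadjusted p under 0.05), and with the replicate block 1 passed, Adam23, a cell surface gene at 666 ± 241 CPM in the controls and 994 ± 149 in Bmi1-deleted libraries (log2 change with the block 0.64, adjusted p = 0.015).

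Markers of fibroblasts stood higher in the Bmi1-deleted libraries as well. The 17 fibroblast markers examined summed to 5218 to 9098 CPM over the control and 8945 to 18908 CPM over the Bmi1-deleted libraries, and none was at 0 counts throughout. Of 15 tested, 15 had a log2 change above 0, and 0 passed edgeR's test without the block (10 had an unadjusted p under 0.05) and 7 with it. Among those that define fibroblasts, Pdgfra had 3.10 and 7.07 CPM and Lum 3.40 and 10.8 CPM, control before Bmi1-deleted. The 12 melanocyte markers summed to 9520 to 15769 and 5382 to 11102 CPM, and 10 of the 12 fell with the block, against 0 without it (8 had an unadjusted p under 0.05). Of 12 Schwann cell and 12 keratinocyte markers, 6 and 3 rose with the block, and 0 of 11 endothelial and mural, 8 immune and 2 muscle or adipocyte markers tested passed in either fit. With the block, 1.71% of all tested genes rose and 0.706% fell. At an unadjusted p under 0.05 without the block, 4.82% were higher and 3.45% lower. A log2 change above 0 was found in 12 of 12 Schwann cell, 9 of 12 keratinocyte, 10 of 11 endothelial and mural and 7 of 8 immune markers. Both muscle or adipocyte markers and 1 of the 12 melanocyte markers also had one, against 50.7% of all tested genes. In sorted bulk samples, fewer cells of a type and less RNA per cell cannot be told apart. With the mean log2 level of the fibroblast markers of each library as a covariate, the log2 change of Peg3 was 1.1 (adjusted p = 0.0125) and that of Zdbf2 1.31 (adjusted p = 0.0276). This score ran from 5.16 to 5.79 in control and from 5.52 to 6.92 in Bmi1-deleted libraries, so it largely followed the group. The part of other cells in the changes of Peg3 and Zdbf2 was not tested. With the block and this score together, which leaves few degrees of freedom, Peg3 had 1.5 (adjusted p = 0.135) and Zdbf2 2.30 (adjusted p = 0.118), and 0 members passed.

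The Peg10-Sgce cluster of chromosome 6 held genes expressed from either allele, and its 3 tested members had log2 changes above 0. Peg10, a paternally expressed gene derived from a retrotransposon, stood at 62.7, 51.5, 60.5 and 48.8 CPM in the controls and 87.7, 83.4, 87.4 and 89.0 in Bmi1-deleted libraries 1 to 4. The groups did not overlap. Its log2 change of 0.64 (SE 0.13) did not pass (adjusted p = 0.0875) and passed with the replicate block (0.64, adjusted p = 0.0104). DESeq2's Wald test called it too (adjusted p = 0.00578). The blocked call was lost without pair 2 (0.0957) or pair 4 (0.0705). Sgce, which lies 99 bases away on the other strand and encodes a sarcoglycan of the cell membrane, had 19.6, 28.3, 23.3 and 18 CPM in the controls and 32.7, 41.1, 33.1 and 27.9 in Bmi1-deleted libraries 1 to 4 (log2 change 0.60, SE 0.20, adjusted p = 0.41, 0.0964 with the block). Control 2, at 28.3 CPM, lay above Bmi1-deleted 4, at 27.9.

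Ppp1r9a, the neurabin gene of actin-rich processes, is maternally expressed in some tissues and lies 142400 bases from Peg10. It had 104, 103, 85.0 and 73.3 CPM in the controls and 155, 137, 117 and 118 in Bmi1-deleted libraries 1 to 4, with no overlap (log2 change 0.53, SE 0.14, adjusted p = 0.261, 0.0136 with the block). The blocked call was lost without any 1 of the 4 pairs (0.0548 to 0.0767). With the fibroblast score as a covariate, Peg10 had 0.63 and Ppp1r9a 0.22, and neither passed. Asb4, the maternally expressed member at the end of the cluster, had 52 counts in all and was not tested. Among the genes between and around them, Casd1 had −0.31 (adjusted p = 0.817) and Col1a2, a collagen gene and 1 of the fibroblast markers, 0.96 (adjusted p = 0.293, 0.000664 with the block).

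Mest and Copg2 overlap on opposite strands of chromosome 6. Mest, a paternally expressed hydrolase gene of mesodermal tissue, had 18.6, 19.5, 13.1 and 13.2 CPM in the controls and 32.5, 48.7, 23.8 and 22.4 in Bmi1-deleted libraries 1 to 4. The groups did not overlap, and Bmi1-deleted 2 was highest. The log2 change was 0.99 (SE 0.26, adjusted p = 0.244) and 0.94 with the block (adjusted p = 0.0147), a call lost without pair 2 (0.201) or pair 3 (0.051). It was 0.35 with the fibroblast score as a covariate (adjusted p = 0.699). Copg2, a coat protein gene assigned to the maternal allele, had 32.8, 48.2, 32.7 and 30.7 CPM in the controls and 43.6, 40.8, 40.1 and 26.4 in Bmi1-deleted libraries 1 to 4 (0.06, SE 0.20, adjusted p = 0.976). The log2 ratio of Mest to Copg2 lay between −1.33 and −0.82 in control and between −0.75 and 0.25 in Bmi1-deleted libraries. The sources used here do not say whether the counting used strand, so reads from the overlap could be assigned to either gene.

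Plagl1 and Slc38a4, both paternally expressed, were the members that fell with the block. Plagl1, a zinc finger transcription factor known to slow cell division and to act on other imprinted genes, had 308, 270, 399 and 457 CPM in the controls and 179, 155, 246 and 303 in Bmi1-deleted libraries 1 to 4. In each same-numbered pair the Bmi1-deleted library was lower, while Bmi1-deleted 4 lay above control 2, so the groups overlapped. The level was 61.6% of control (log2 change −0.70, SE 0.22, adjusted p = 0.41, 0.000756 with the block). With the block it passed with each of the 4 pairs left out (highest adjusted p 0.0221). Without the block it passed in replicates 1 and 2 alone (−0.79, adjusted p = 0.0166). In replicates 3 and 4 alone it did not pass (−0.66, adjusted p = 0.155).

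Slc38a4, an amino acid transporter gene of liver and placenta, had 17.6, 30.6, 34.9 and 35.4 CPM in the controls and 12, 10.5, 17.7 and 23.9 in Bmi1-deleted libraries 1 to 4 (log2 change −0.89, SE 0.29, adjusted p = 0.4, 0.0352 with the block). The groups overlapped through control 1, the lowest control, and the blocked call was kept only without pair 1 (adjusted p = 0.0396, against 0.0888 to 0.287 without each of the others). The fibroblast score as a covariate left −0.08 for Plagl1 and −0.15 for Slc38a4 (adjusted p = 0.897 for both). Markers of melanocytes were lower in the same libraries, as given above, and their part in these differences was not tested.

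**Figure D2:**
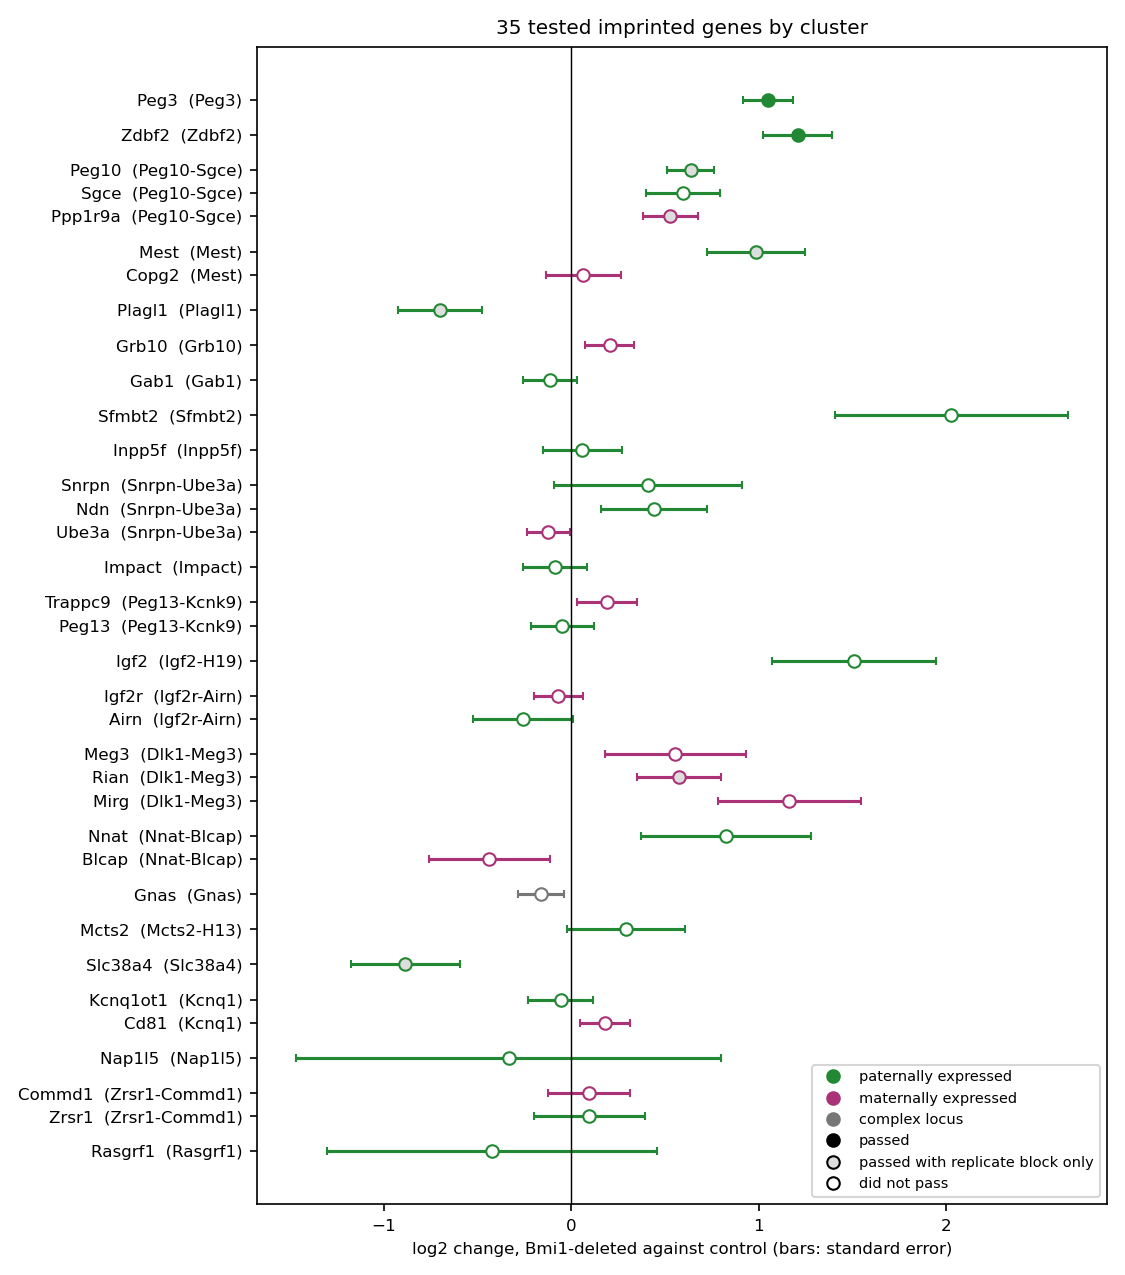
Log2 change (Bmi1-deleted against control, points) with its standard error (bars) for the 35 tested imprinted genes, ordered by cluster and coloured by the allele expressed; filled points passed, grey points passed with the replicate block only. Peg3 at 1.05 and Zdbf2 at 1.21 are the filled points, and Plagl1 at −0.70 and Slc38a4 at −0.89 lie farthest to the left.

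The Dlk1-Meg3 cluster of chromosome 12 makes a chain of maternally expressed non-coding RNAs, Meg3, Rian and Mirg, that hold small RNAs in their introns. Meg3 had 193, 185, 87.0 and 60.1 CPM in the controls and 242, 210, 166 and 153 in Bmi1-deleted libraries 1 to 4. Replicates 3 and 4 were lower than 1 and 2 in both groups, and the groups overlapped (log2 change 0.55, SE 0.38, adjusted p = 0.806, 0.118 with the block). Rian had 95.1, 118, 62.0 and 56.1 CPM in the controls and 131, 136, 130 and 95.9 in Bmi1-deleted libraries. Its log2 change was 0.57 (SE 0.22, adjusted p = 0.525), and it passed with the block (0.62, adjusted p = 0.0197), though not without pair 3 (0.17) or pair 4 (0.126). The change was 0.32 in replicates 1 and 2, 0.92 in replicates 3 and 4, and 0.08 with the fibroblast score as a covariate.

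Mirg, the last of the chain, had 4.04, 2.99, 4.39 and 7.58 CPM in the controls and 8.83, 8.25, 16.0 and 9.52 in Bmi1-deleted libraries 1 to 4, with no overlap (1.16, SE 0.38, adjusted p = 0.399). The log2 ratio of Rian to Meg3 averaged −0.56 ± 0.38 in control and −0.63 ± 0.22 in Bmi1-deleted libraries, a difference smaller than the spread. The paternally expressed genes of the cluster were near the limit of detection. Dlk1, a Notch-like growth regulator, had 3, 0, 3 and 0 counts in control and 1, 3, 5 and 0 in Bmi1-deleted libraries 1 to 4, and Rtl1, a retrotransposon-derived placental gene, had 91 in all. The 3 tested genes of this cluster all had a log2 change above 0, with a median of 0.57.

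Igf2 and Sfmbt2 had the widest fitted changes outside these clusters, at low counts. Igf2, the paternally expressed fetal growth factor, had 24, 15, 20 and 20 counts in control and 65, 68, 37 and 55 in Bmi1-deleted libraries 1 to 4. The groups did not overlap, at 2.12 ± 0.423 and 6.07 ± 1.36 CPM (log2 change 1.51, SE 0.44, adjusted p = 0.304, 0.171 with the block). H19, the maternally expressed RNA beside it, had 1, 0, 18 and 1 counts in control and 8, 13, 16 and 8 in Bmi1-deleted libraries, and was not tested. Igf2r, the maternally expressed receptor that clears Igf2, had 233, 260, 255 and 326 CPM in the controls and 231, 232, 280 and 281 in Bmi1-deleted libraries 1 to 4 (−0.07, SE 0.13, adjusted p = 0.952). Airn, its antisense RNA, had 21.7, 12.5, 16.2 and 12.7 CPM in the controls and 9.38, 14.0, 12.3 and 16.9 in Bmi1-deleted libraries (−0.26, SE 0.27, adjusted p = 0.891). The groups overlapped for both.

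Sfmbt2, a Polycomb group gene with MBT domains that is paternally expressed in the placenta, had 18, 38, 2 and 13 counts in control and 64, 50, 71 and 97 in Bmi1-deleted libraries 1 to 4. Its level was 1.88 ± 1.54 and 7.73 ± 2.5 CPM, with no overlap (2.03, SE 0.62, adjusted p = 0.366, 0.0964 with the block). Control 3 was lowest and control 2 highest of the controls, which shows how far apart 4 libraries of 1 group can lie at such counts. Gab1, a signalling adaptor marked in the egg in the same way as Sfmbt2, stood at 405 ± 60.0 and 375 ± 57.5 CPM (−0.11, SE 0.14, adjusted p = 0.918).

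By the allele expressed, 22 paternally and 12 maternally expressed members were tested. Of the paternally expressed, 2 rose and 0 fell, and with the block 4 rose and 2 fell. Of the maternally expressed, 0 rose and 0 fell (3 had an unadjusted p under 0.05, in the higher direction), and 2 rose under the block, with 0 lower. Of all tested genes, 0.0874% rose and 0.00625% fell, and with the block 1.71% rose and 0.706% fell. At an unadjusted p under 0.05, 4.82% of all tested genes were higher and 3.45% lower. The middle of the log2 changes (median) was 0.19 in both sets, against 0.01 over all tested genes. The equal medians depend on the genes imprinted only in some tissues. Among broadly imprinted genes the median was 0.29 for 19 paternally and 0.56 for 4 maternally expressed members, and 3 of those 4, Meg3, Rian and Mirg, belong to 1 chain of transcripts. Among genes imprinted in some tissues it was 0.06 for 3 paternally and 0.14 for 8 maternally expressed members. A log2 change above 0 was found in 13 of 22 and 9 of 12, against 50.7% of all tested genes. The difference between the sets was not tested. The filter on low counts left out 6 paternally and 8 maternally expressed members, and no count here covers them.

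**Figure D3:**
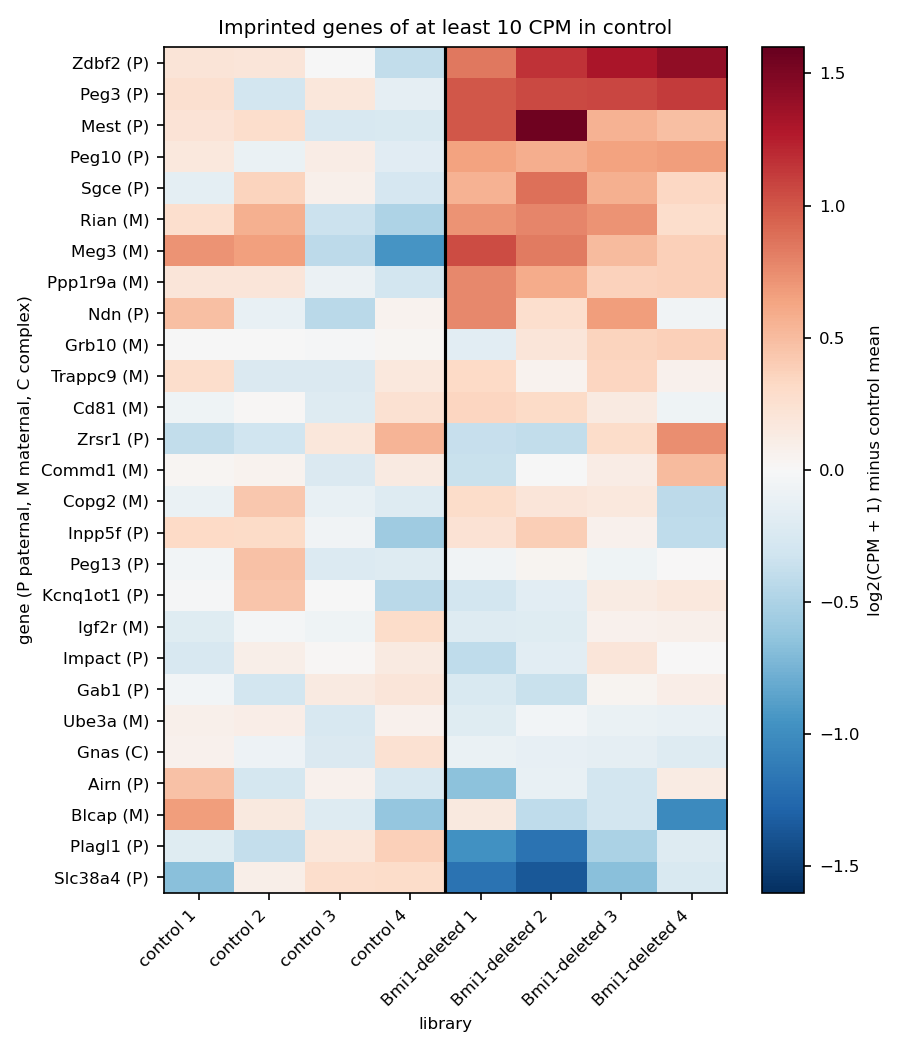
Level of the 27 imprinted genes with a mean of at least 10 CPM in control libraries, as log2(CPM + 1) minus the gene's control mean, in each library (columns, control left of the line); rows are ordered by log2 change, with P, M or C for the allele expressed. Zdbf2 and Peg3 are red in all 4 Bmi1-deleted libraries, and Meg3 is lower in replicates 3 and 4 than in 1 and 2 of either group.

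Of the 49 genes, 10 had a mean of at least 100 CPM in control libraries, 17 from 10 to 100, 10 from 1 to 10 and 12 under 1. Among the 10 most abundant, Peg3 rose, and Plagl1 and Meg3 had the log2 changes of −0.70 and 0.55 given above. The other 7 had log2 changes from −0.16 to 0.21, and none of them passed in either fit. Compared per length, on the TPM scale of the second deposited table, Gnas, which encodes the stimulatory G protein behind cyclic AMP, led at 114 ± 28.1 TPM in control libraries, before the tetraspanin gene Cd81 at 88.9 ± 27.6 and Plagl1 at 57.1 ± 2.26. The first pair do not differ beyond their spread. Peg3, at 7.52 ± 2.27 TPM, ranked 15 of the 49. In CPM, Gnas stood at 537 ± 77.5 and 481 ± 14.4 (log2 change −0.16, SE 0.12, adjusted p = 0.825) and Cd81 at 197 ± 26.9 and 224 ± 28.0 (0.18, SE 0.13, adjusted p = 0.808). Grb10, a maternally expressed adaptor that dampens growth factor receptors, stood at 119 ± 1.87 and 137 ± 22.7 CPM (0.21, SE 0.13, adjusted p = 0.761).

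In the Kcnq1 cluster of chromosome 7, where Cdkn1c lies, the paternally expressed antisense RNA Kcnq1ot1 had 163, 226, 164 and 122 CPM in the controls and 135, 147, 182 and 186 in Bmi1-deleted libraries 1 to 4 (−0.06, SE 0.17, adjusted p = 0.975). Cdkn1c, the maternally expressed cell cycle inhibitor that Kcnq1ot1 silences on the paternal copy, rose from 20.5 ± 3.27 to 49.9 ± 8.93 CPM, a log2 change of 1.28 (SE 0.18, adjusted p = 0.0136). The channel gene Kcnq1 had 1, 0, 0 and 0 counts in control and 8, 4, 5 and 2 in Bmi1-deleted libraries 1 to 4. It was not tested and overlaps Kcnq1ot1. Phlda2, Ascl2 and Tspan32, all maternally expressed, had 26, 4 and 35 counts in all. So of the 6 members of this cluster 2 were tested, and neither passed.

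The Snrpn-Ube3a cluster, the region lost in Prader-Willi and Angelman syndromes, had 3 of 5 members tested and 0 that passed. Ube3a, a ubiquitin ligase gene imprinted in neurons, stood at 185 ± 20.9 and 170 ± 7.0 CPM (−0.12, SE 0.11). Ndn, a paternally expressed growth suppressor, stood at 11.6 ± 3.39 and 15.8 ± 4.22 CPM (0.44, SE 0.28), and Snrpn, a splicing protein gene, at 3.52 ± 1.64 and 4.68 ± 2.09 CPM. This Snrpn entry overlaps the protein-coding entries Snurf and Gm38393 on its own strand, so its count may hold only part of the locus. Igf2 and Commd1 likewise overlap protein-coding entries of their own strand, Gm49394 and Gm28048. Magel2 was at 0 counts in 7 libraries and had 5 in Bmi1-deleted 1. A count of 0 allows up to 3 counts, 0.298 to 0.340 CPM by library. Peg12 had 90 counts over the 8 libraries, 42 of them in Bmi1-deleted 3.

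Imprinted genes that sit inside or across a host gene were compared with it. Nnat, the neuronal membrane gene in an intron of Blcap, had 5.00, 4.02, 2.57 and 2.38 CPM in the controls and 10.0, 5.76, 3.67 and 5.33 in Bmi1-deleted libraries 1 to 4 (0.83, SE 0.45, adjusted p = 0.688). Blcap had 27.0, 18.6, 14.2 and 10.4 CPM in the controls and 18.5, 12.3, 13.3 and 7.71 in Bmi1-deleted libraries (−0.44, SE 0.32, adjusted p = 0.815). The log2 ratio of Nnat to Blcap ran from −2.47 to −2.13 in control and from −1.86 to −0.53 in Bmi1-deleted libraries, which did not overlap, though neither gene passed. The ratio rests on 21 to 91 Nnat counts per library. Nnat and Blcap overlap on opposite strands, and without a known strand setting reads from the overlap could be assigned to either gene. Zrsr1, a splicing factor gene inside Commd1, had 53.0, 56.0, 79.4 and 102 CPM in the controls and 54.0, 53.0, 86.2 and 118 in Bmi1-deleted libraries 1 to 4. Commd1 had 20.5, 20.8, 16.8 and 22.2 CPM in the controls and 15.3, 19.9, 21.8 and 28.7 in Bmi1-deleted libraries, and the log2 ratio of Commd1 to Zrsr1 averaged −1.81 in both groups. Peg13, a non-coding RNA inside Trappc9, had 46.2, 66.2, 40.9 and 41.4 CPM in the controls and 45.7, 49.4, 45.4 and 48.0 in Bmi1-deleted libraries 1 to 4. Trappc9 had 59.7, 41.7, 41.6 and 55.2 CPM in the controls and 61.5, 50.9, 62.5 and 51.2 in Bmi1-deleted libraries, so both pairs of groups overlapped. Mcts2 had 0.29 (SE 0.32) beside 0.18 (SE 0.14) for its host H13, and Nap1l5 −0.33 (SE 1.14) beside −0.21 (SE 0.34) for its host Herc3.

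The other members tested were Impact, an inhibitor of a stress kinase (−0.09, SE 0.17), Inpp5f, a lipid phosphatase gene (0.06, SE 0.21), and Rasgrf1, a Ras activator of neurons (−0.42, SE 0.88). Kcnk9, a potassium channel gene, and Ddc, an amine-synthesis gene, had 15 and 8 counts in all and were not tested. Over the 14 genes not tested, no library held more than 42 counts.

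Other imprinted genes and cluster neighbours, 44 in all with Cdkn1c among them, served for comparison. Of 24 tested, 1 rose, Cdkn1c, and 0 fell, and with the block 3 rose, Cdkn1c, Adam23 and Cpa4, a carboxypeptidase gene near Mest (log2 change 1.42, SE 0.51, adjusted p = 0.481, 0.0312 with the block). Over all tested genes 0.0874% rose without the block and 1.71% with it. Cdkn1c is the gene left out of the members by name, and the lists were made with earlier results of these data known. The counts that hold Cdkn1c are therefore no independent comparison, and no other gene of the list passed without the block. Other listed genes near a member that passed with the block did not pass in either fit: Phactr2, 76023 bases from Plagl1, had −0.28 (SE 0.11, adjusted p = 0.549), and Pon2 and Pon3, paraoxonase genes near Ppp1r9a, had 0.09 (SE 0.22) and −0.21 (SE 0.53). Among 9 tested genes within 500 kb of Plagl1 that are no members, 3 had an unadjusted p under 0.05, all lower. Near Slc38a4 it was 1 of 4, also lower, against 3.45% lower of all tested genes. In either fit 0 of these neighbours passed, and their counts were chosen after the values were seen. Of 28 genes that set or keep imprints, 25 were tested and 0 passed in either fit by edgeR's test (4 had an unadjusted p under 0.05, 1 higher and 3 lower). At that unadjusted level 4.82% of all tested genes were higher and 3.45% lower. The 4 regulators, named after their values were seen, were Tet3, which encodes a demethylating enzyme, and the chromatin genes Uhrf1, Suz12 and Hells. The median log2 change of the 25 was −0.08. Of the 3 not tested, also named after their values were seen, Zfp57 had 28 counts in all, and Dnmt3l and Dppa3, genes of germ cells and the early embryo, 0.

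**Figure D4:**
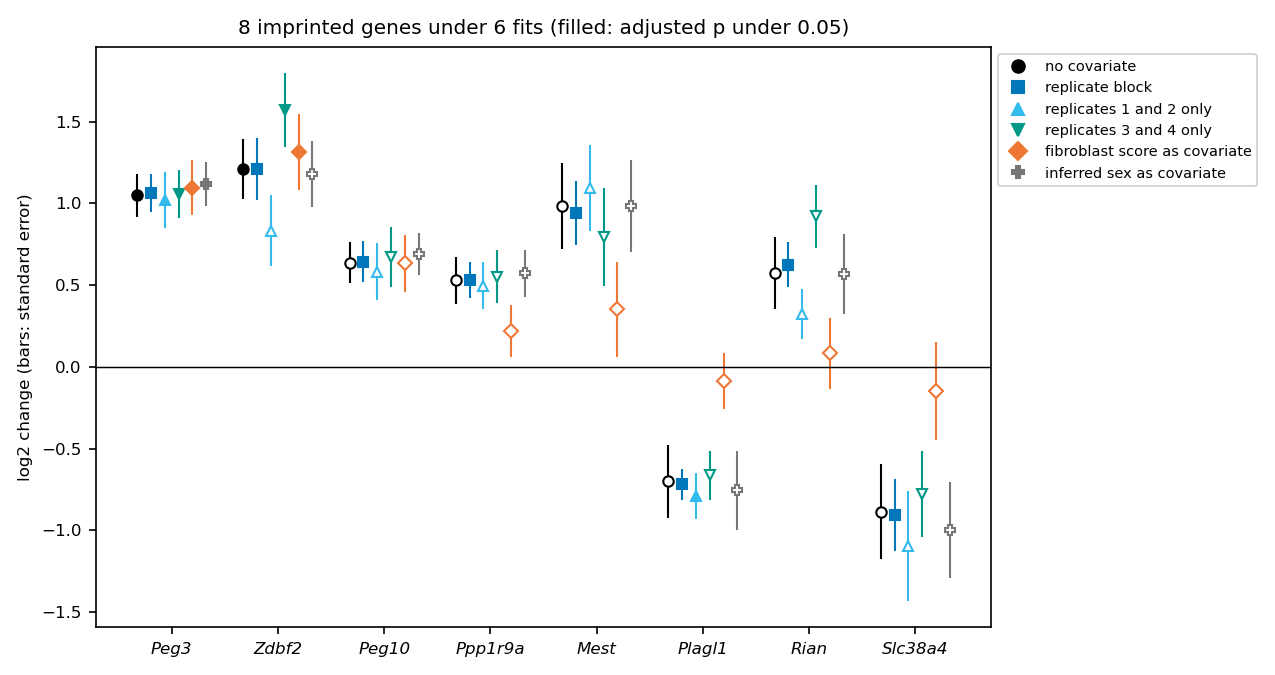
Log2 change (points) with its standard error (bars) of the 8 imprinted genes that passed with or without the replicate block, under 6 fits; filled symbols passed. Peg3 lies between 1.02 and 1.12 in all 6, whereas Plagl1 moves from −0.70 to −0.08 and Slc38a4 from −0.89 to −0.15 with the fibroblast score as a covariate.

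The deposited TPM, which divide by an effective transcript length, gave smaller changes for the 2 genes that rose. Peg3 had 7.52 ± 2.27 TPM in the controls and 11.6 ± 1.11 in Bmi1-deleted libraries, and Zdbf2 1.33 ± 0.704 and 1.81 ± 0.649. By limma on log2(TPM + 1) the changes were 0.60 for Peg3 (adjusted p = 0.753) and 0.30 for Zdbf2 (adjusted p = 0.875), and 0 of 29 tested members passed (2 with higher and 2 with lower levels had an unadjusted p under 0.05). The median of all genes was −0.18 on this scale, and relative to it Peg3 had 0.78, Zdbf2 0.48, Mest 1.16, Plagl1 −0.77 and Slc38a4 −0.64.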

How the data were processed

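Total RNA of 8 libraries (over 10000 sorted cells, 1 ng of RNA, 2 rounds of 15 PCR cycles) was quantified by the authors. The submitters' processing notes name Salmon 1.2.1 and mm10. The deposited tables hold estimated counts per gene as whole numbers, and log2(TPM + 1). The sources used here do not give the annotation version or the strand setting. Groups were taken from the labels. Symbols and positions came from GENCODE M21, which named 54096 of 54418 identifiers and all 49 members.

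Counts were filtered by edgeR's filterByExpr, scaled by TMM and tested with the quasi-likelihood test (edgeR 4.0.16, R 4.3.3), with Benjamini-Hochberg adjustment over 16011 genes. The SE is the change divided by the square root of F. DESeq2 1.42.0 and limma 3.58.1 (genes above 1 on the log2 scale in 4 libraries) were alternatives, with other filters, covariates, subsets and each library left out. A 0 allows 3 counts, for counting error only. The code was tested on simulated counts.

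Replicate numbers were treated as pairs because same-numbered libraries deviated together (correlations 0.207 to 0.390 over the 8954 genes averaging 100 or more counts). The labels say nothing of what a number marks. Deviations were also shared between numbers within 1 and 2 and within 3 and 4 (mean 0.283), and 4 of 8 libraries correlated best with their own number. Between 1 and 2 on one side and 3 and 4 on the other the mean was −0.291. Deviations were taken from the group mean and cancel within a group, so this negative value largely follows from the positive ones. By the positive values, the data part these sets more clearly than they part the 4 numbers.

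Members and lists were chosen with earlier results of these data known. Values in every library are given for members that passed with or without the block or had an unadjusted p under 0.05, and for 9 pairs of genes of 1 cluster. Genes of the comparison lists are named if they passed with or without the block or lie within 500 kb of a member that did. Other listed genes (Tet3, Uhrf1, Suz12, Hells, Zfp57, Dnmt3l, Dppa3, Pdgfra and Lum) and the hosts H13 and Herc3 are named outside that rule.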

Additional observations from a re-analysis of the deposited data

Results flagged for a closer look

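In 5 of 70 sets of 4 libraries (35 tested genes, 2 groups), 1 library lay far from the other 3 by Dixon's test at its 95% critical value. Chance flags about 1 in 20 sets. Copg2 stood at 48.2 CPM in control 2, against 30.7 to 32.8 in the other controls. Ube3a stood at 154 CPM in control 3, against 193 to 198. Rian stood at 95.9 CPM in Bmi1-deleted 4, against 130 to 136 in the other Bmi1-deleted libraries. Mirg stood at 16.0 CPM and Nap1l5 at 5.23 CPM in Bmi1-deleted 3, against 8.25 to 9.52 and 0.110 to 0.199.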

How the results depend on the processing

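The imprinted genes that passed, 2 higher and 0 lower, stood beside 14 higher and 1 lower of all genes. With the replicate block these counts were 6 and 2 beside 273 and 113. Without a filter on low counts they were 7 and 2 beside 259 and 121, in replicates 1 and 2 alone 1 and 1 beside 83 and 73, and with inferred sex as a covariate 1 and 0 beside 15 and 1. By limma on log2(TPM + 1) they were 0 and 0 beside 1 and 2, and with the block and the fibroblast score together, chosen after seeing the data, 0 and 0 beside 7 and 9. Over all genes, the DESeq2 Wald test called 106 and 52, DESeq2 size factors 17 and 3, a filter of 10 CPM in 4 libraries 16 and 2, replicates 3 and 4 alone 11 and 6, and the fibroblast score 22 and 6. Leaving out each library gave 8 to 40 higher (40 and 5 without control 1) and 0 to 5 lower genes, and 1 to 2 higher and 0 lower imprinted genes. The cause was not tested. Of 184 values for the 8 genes under these settings, 147 kept their side of the threshold, 25 moved past it, 12 fell short of it and 0 reversed. The block changed the calls of Peg10, Ppp1r9a, Mest, Rian, Plagl1 and Slc38a4 and of no other tested member. The 14 genes not tested, with at most 42 counts in any library, could not be compared at this depth.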
